A study of Mus musculus with 6 samples.

Results

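Regions bound by both GATA4 and GATA6 that lie between genes numbered 931 of 8282 regions (11.2%) in the combined GATA4 list of mouse extraembryonic endoderm (XEN) cells. They were chosen by 3 criteria: at least 1 bp of overlap with a region of the combined GATA6 list (5170 regions), a midpoint more than 1 kb from every transcription start site (TSS) of protein-coding and lncRNA genes, and a midpoint outside every protein-coding gene body. They made up 24.9% of the 3744 GATA4 regions shared with GATA6, and 927 GATA6 regions overlapped them. CUT&RUN was carried out for each factor on 500000 XEN cells, with 3 GATA4 and 3 GATA6 libraries that the labels assign to the line 3F2. The study describes its 3F lines as derived from mice that were homozygous for R26:M2rtTA, Col1a1:OKSmCh and Oct4:EGFP, a background common to all 6 libraries, and the cells were the starting population of reprogramming. The labels do not say whether the replicates came from separate cultures, and p-values over libraries then measure only the spread between these libraries. The methods also name a line 3F6 and fewer replicates, and the labels were followed. No control library was analysed here.

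XEN cells are the in vitro counterpart of primitive endoderm, the early lineage that forms the yolk sac endoderm and lays down a laminin-rich basement membrane. GATA6 and GATA4 are zinc finger transcription factors at the head of this lineage's gene program, and both recognise the core sequence GATA through closely related DNA-binding domains. Sites away from promoters can act as enhancers, elements that raise transcription of a gene from a distance, but binding alone does not show that a region is one or which gene it serves.

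The sequences below show the DNA under the maximum signal for 7 regions of high signal rank near listed transcription factor, matrix and receptor genes, and for the first 2 of the regions with most GATA motifs, so that the motif can be seen where the signal peaked. Each is the maximum and 75 bases to either side (151 bases, forward strand, mm10, read from the GRCm38 assembly). Capitals mark AGATAA or AGATAG or TGATAA or TGATAG on either strand, which is the GATA motif used throughout, and on the reverse strand the same motif reads TTATCT or CTATCT or TTATCA or CTATCA.
Pdgfra upstream region: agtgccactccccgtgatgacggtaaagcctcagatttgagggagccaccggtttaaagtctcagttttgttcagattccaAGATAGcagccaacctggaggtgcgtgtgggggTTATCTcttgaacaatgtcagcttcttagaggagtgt
Klf5 downstream region: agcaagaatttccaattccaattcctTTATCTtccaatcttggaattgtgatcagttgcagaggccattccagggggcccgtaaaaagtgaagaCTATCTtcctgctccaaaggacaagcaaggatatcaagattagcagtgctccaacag
Lamb1 upstream region: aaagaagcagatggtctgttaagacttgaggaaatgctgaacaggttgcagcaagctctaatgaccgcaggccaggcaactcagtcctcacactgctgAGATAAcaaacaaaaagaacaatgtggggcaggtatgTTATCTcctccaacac
Lamc1 upstream region, far: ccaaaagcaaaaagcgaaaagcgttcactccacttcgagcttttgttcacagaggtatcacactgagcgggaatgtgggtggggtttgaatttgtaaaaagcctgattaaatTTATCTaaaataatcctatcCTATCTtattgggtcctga
Lamc1 upstream region, near: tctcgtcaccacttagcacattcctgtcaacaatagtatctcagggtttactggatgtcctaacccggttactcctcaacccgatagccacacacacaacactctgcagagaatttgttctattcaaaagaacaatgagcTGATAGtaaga
Fgfr2 downstream region: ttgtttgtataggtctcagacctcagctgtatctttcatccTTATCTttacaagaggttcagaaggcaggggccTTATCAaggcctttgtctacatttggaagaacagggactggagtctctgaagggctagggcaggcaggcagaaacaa
P4hb downstream region: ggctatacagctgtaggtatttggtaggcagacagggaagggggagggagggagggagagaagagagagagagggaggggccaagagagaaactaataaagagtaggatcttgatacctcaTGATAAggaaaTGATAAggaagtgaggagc
Gpc4 region: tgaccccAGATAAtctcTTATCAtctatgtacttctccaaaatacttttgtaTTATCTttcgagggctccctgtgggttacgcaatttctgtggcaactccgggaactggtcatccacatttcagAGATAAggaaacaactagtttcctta
Trib1 region: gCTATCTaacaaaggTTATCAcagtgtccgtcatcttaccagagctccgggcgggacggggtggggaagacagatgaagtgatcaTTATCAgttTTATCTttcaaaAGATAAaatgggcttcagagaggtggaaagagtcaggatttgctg
The stretches lie at chr5:75143785-75143935 (Pdgfra), chr14:99331684-99331834 (Klf5), chr12:31229407-31229557 (Lamb1), chr1:153376701-153376851 and chr1:153358649-153358799 (Lamc1, far and near), chr7:130149099-130149249 (Fgfr2), chr11:120507937-120508087 (P4hb), chrX:52177171-52177321 (Gpc4) and chr15:59729572-59729722 (Trib1). The Gpc4 stretch held 4 motifs and the Trib1 stretch held 5, the region near Trib1 having the lowest signal rank of the 9 (mean percentile 63.5).

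The regions varied widely in width and in distance from genes. Their median width in the combined list was 887 bp (quartiles 644 and 1210 bp, range 55 to 7376 bp), and a median of 82.2% of the GATA4 region was covered by GATA6 regions. In single libraries, the call with the highest maximum at a region had a median width of 480.5 to 660 bp. The median distance from a midpoint to the nearest TSS was 15760 bp, with quartiles of 6193 and 35301 bp, and the farthest lay 830837 bp away. To a protein-coding TSS alone the median was 26516 bp, and 700 different genes were the nearest. LncRNA bodies, which the selection allowed, held 118 regions (12.7%). At the 1 kb limit, the members nearest to a TSS were 1007 bp from Gm14005, 1020 bp from Ypel2 and 1024 bp from Lifr, with mean percentiles of 96.4, 89.3 and 79.7. The shared regions just inside the limit lay 995 bp from Mapk1ip1l, 979 bp from AC166350.2 and 961 bp from Rprd2, with mean percentiles of 88.2, 83.6 and 92.5.

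Signal was high in every library, as the selection on regions present in all replicates required, and it is given as a description. Because the deposited signal was not scaled for depth, the regions were ranked within each library's own list, of 42446 to 49597 regions, as a percentile of total signal. The median percentile was 95.6, 95.2 and 94.9 in GATA4 replicates 1 to 3 and 92.7, 92.8 and 92.8 in GATA6 replicates 1 to 3 (95.3 ± 0.374 and 92.8 ± 0.0885, SD, n = 3 each). The maximum signal, a fragment pileup, had medians of 11, 10 and 10 for GATA4 and 8, 7 and 8 for GATA6, where the median of each whole list was 4. The pileup at a typical region was thus at most 11 fragments deep, so that the place of its maximum is known only roughly. Of the 931 regions, 914 were overlapped by a called region in all 6 libraries, 15 in 5 libraries and 2 in 4, and the missing calls were all in GATA6 libraries. In GATA4 libraries 34 to 51 regions ranked below the 50th percentile, and in GATA6 libraries 83 to 91 did.

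**Figure D1:**
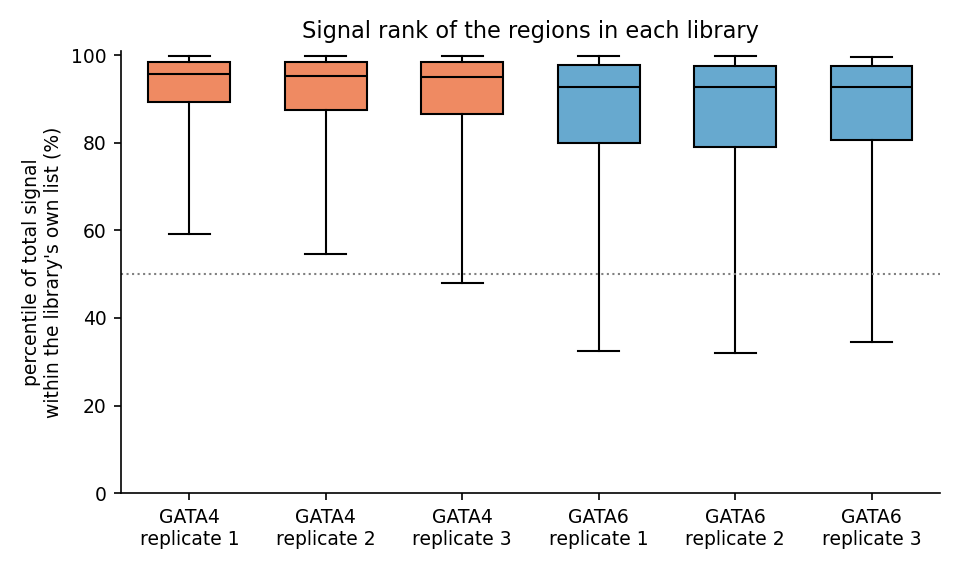
Percentile of total signal of the 931 regions within each library's own list, on the vertical axis, for the 3 GATA4 and 3 GATA6 libraries. Boxes span the quartiles with the median as a line, whiskers reach the 5th and 95th percentiles, and the dotted line marks the 50th percentile. Medians lie at 94.9 to 95.6 for GATA4 and 92.7 to 92.8 for GATA6, and the lower quartile is lower in the GATA6 libraries (79.1 to 80.7) than in the GATA4 libraries (86.6 to 89.3).

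Regions ranked higher by GATA4 than by GATA6 were more common than the opposite. Among the 914 regions called in 6 libraries, 165 (18.1%) had all 3 GATA4 percentiles above all 3 GATA6 percentiles, where 13.6% of all shared regions did. The reverse order was seen in 35 (3.83%), beside 5.83% of all shared regions. As membership required a place in the combined GATA4 list and overlap with the combined GATA6 list, these shares describe the selected regions and were not tested.

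The maxima of both factors fell close together. The median GATA4 maximum and the median GATA6 maximum of a region lay a median of 30 bp apart (quartiles 10.3 and 71 bp), and 599 of 914 (65.5%) lay within 50 bp. Single libraries of GATA4 differed from each other by medians of 35 to 42 bp, single libraries of GATA6 by 49 to 51 bp, and a GATA4 library from a GATA6 library by 43 to 52 bp. The distances between factors thus overlapped those between GATA6 replicates and lay above those between GATA4 replicates. All 6 maxima fitted within 145.5 bp in the median region.

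The GATA motif was concentrated at the maximum. Within 100 bp of the maximum, 638 of 931 regions (68.5%, exact 95% interval 65.4 to 71.5) held at least 1 motif, whereas 288 (30.9%) did in a window of the same 201 bp placed 2 kb to the lower-coordinate side. The motif was at the maximum and not in the flank of 431 regions and only in the flank of 81 (exact McNemar test, two-sided, p = 1.11e-58, over 931 regions, which are not replicates). On the opposite side the flank share was 30.4%. Over all 8282 regions of the GATA4 list, 45.8% held the motif. Regions with 2 or more motifs numbered 401 (43.1%) at the maximum, beside 7.09% in the flank, and 174 held 3 or more. Intervals of shares cover counting error only.

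The 4 forms of the motif were not equally enriched. AGATAA, the form with the most matches, occurred 528 times at the maxima and 105 times in the flanks (5.03 times as often). TGATAA occurred 313 and 107 times (2.93 times), AGATAG 287 and 112 times (2.56 times), and TGATAG 138 and 73 times (1.89 times). Matches per kb reached 7.71 and 7.41 in the 50 bp bins either side of the maximum, whereas bins 500 to 1000 bp away held 1.91 to 2.88. Pairs of motifs whose starts lay within 10 bp of each other were found in 60 regions (6.44%) at the maximum and in 11 (1.18%) in the flank (adjusted p = 3.63e-09, exact McNemar test, Benjamini-Hochberg over 16 strings). A pair needs 2 or more motifs, which 43.1% of maxima and 7.09% of flanks held. The test therefore cannot separate close spacing from the number of motifs, and spacing itself was not tested. As a control, the motif letters were reversed (AATAGA or AATAGT or GATAGA or GATAGT). The last pair of forms can overlap AGATAG or TGATAG by 5 letters, and it was found in 20.2% of maxima and 12.1% of flanks. AATAGA or AATAGT, which cannot be part of such an overlap, was less frequent at the maxima (14.5%) than in the flanks (17.8%, exact McNemar test, unadjusted p = 0.0453). This split of the control was not among the 16 strings, which hold the 4 forms together.

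**Figure D2:**
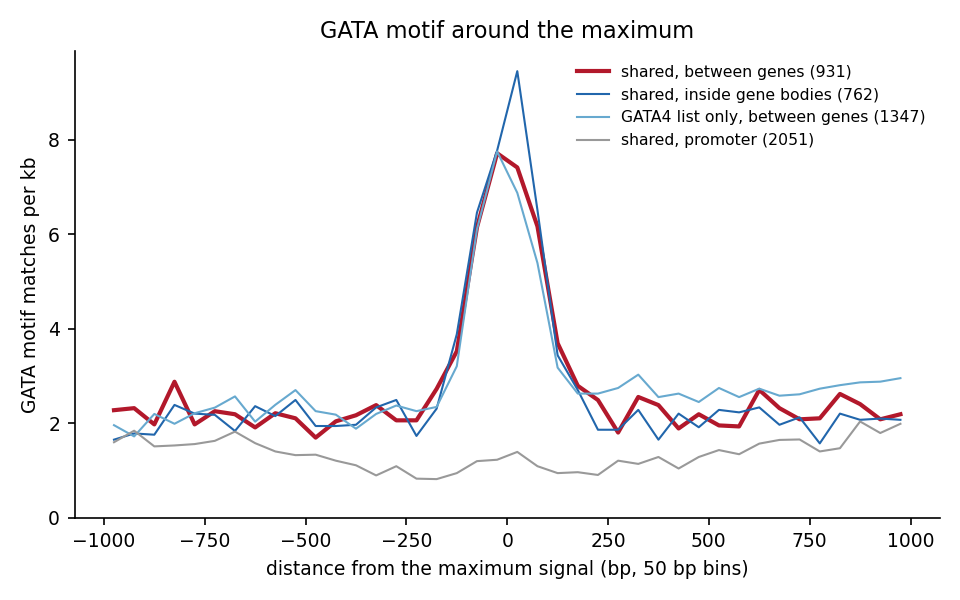
GATA motif matches per kb (vertical axis) by distance in bp from the maximum signal, in 50 bp bins, for the 931 shared regions between genes and 3 other sets of the GATA4 list. The 3 distal sets rise from about 2 matches per kb to 6.87 to 9.45 next to the maximum, whereas shared promoter regions stay at 1.23 and 1.39 there.

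Distal regions held the motif far more often than promoter regions. Shared regions at promoters held the motif in 17.9% of 2051, which is 50.6 percentage points lower than between genes (95% interval of the difference 47.1 to 53.9, Fisher's exact test, adjusted p = 1.66e-158 over 3 comparisons). Median GC content was 62.2% in the windows of shared promoters and 48.3% in those between genes. Windows between genes with a GC of 60% or more held the motif in 12.5% of 64. The part of base composition in the difference from promoters was not tested. Shared regions inside gene bodies held the motif in 72.8% of 762. The difference of -4.31 points (interval -8.61 to 0.0634) did not pass the threshold of Fisher's exact test (adjusted p = 0.0812), but it did when chromosomes 8, 14 and 19 were left out (-7.25 points, adjusted p = 0.00988) and when 2.5 kb from a TSS was required (-8.35 points, adjusted p = 0.00061). Regions between genes that were in the GATA4 list only held the motif in 68.4% of 1347, a difference of 0.154 points (interval -3.75 to 4.01, Fisher's exact test, adjusted p = 0.963). This last value rested on which libraries made the list: with the combined list built without GATA4 replicate 1, 2 or 3 in turn, the difference was 6.83, 7.57 and 6.06 points (Fisher's exact test, adjusted p = 0.000257, 4.6e-05 and 0.000895), with 2373, 2498 and 2517 GATA4-only regions.

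The motif share was also measured at each library's own maxima. The motif lay within 100 bp of the library's own maximum in 68.7%, 68.6% and 68.0% of the regions in GATA4 replicates 1 to 3, and in 66.5%, 64.9% and 66.5% in GATA6 replicates 1 to 3. All 3 GATA4 libraries were above all 3 GATA6 libraries, by 2.49 points on average (68.5% ± 0.407 and 66.0% ± 0.896). The exact two-sided permutation test gave p = 0.1, the smallest that 3 against 3 allows, so the design could not reach 0.05. Flank shares were 30.4% to 33.5% over the 6 libraries.

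The motif share varied with signal rank, with distance from a TSS and most widely with base composition. With the regions ordered by mean percentile and divided into 4 equal groups, it was, from the lowest up, 60.1%, 64.4%, 73.3% and 76.4%, with flank shares of 29.6% to 33.5%. Regions without a motif had a median mean percentile of 85.2, those with 1 motif 88.3, those with 2 motifs 91.0 and those with 3 motifs 92.9. From 1 to 5 kb from a TSS 62.2% held the motif, from 5 to 20 kb 67.6%, from 20 to 50 kb 71.9% and from 50 to 200 kb 73.5%. Beyond 200 kb 14 of 20 regions (70%) held it, with a flank share of 45%. Inside lncRNA bodies the share was 78.0% of 118 regions and outside them 67.2% of 813. Windows with a GC content of 60% or more were the exception: 8 of 64 (12.5%, exact interval 5.55 to 23.2) held the motif, fewer than in their own flanks (29.7%). Without them the share was 72.7% of 867. The GC limit was set on the window at the maximum and not on the flank, and the motif itself is rich in A and T. These splits were not tested.

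**Figure D3:**
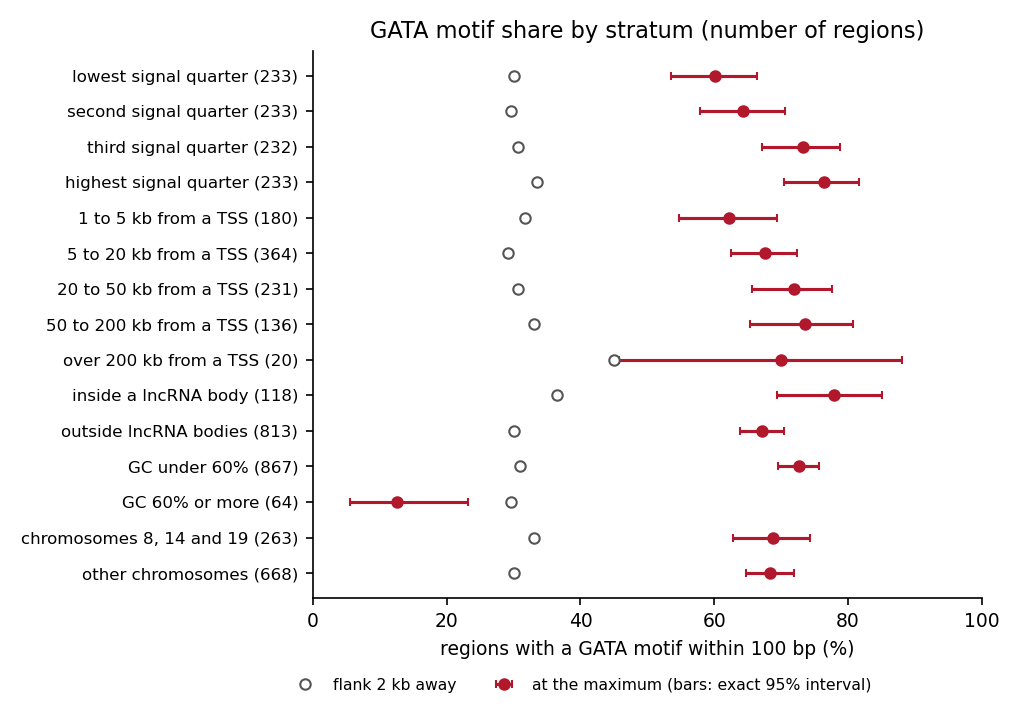
Share of regions with a GATA motif within 100 bp (horizontal axis, %) at the maximum (filled, with exact 95% intervals) and in the flank 2 kb away (open), by signal group, distance from a TSS, lncRNA overlap, GC content and chromosome, with the number of regions in brackets. The filled points lie at 60.1% to 78.0% and right of the open ones in every stratum shown except GC of 60% or more (12.5% against 29.7%).

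Of 16 strings searched on both strands, 8 were more frequent at the maximum than in the flank and 1 was less frequent. The 8 included the GATA motif, its pairs within 10 bp and the reversed control. The strings of other factors among them were KLF or SP, TEAD, AP-1, CTCF and SOX. KLF and SP factors bind GC-rich boxes, and their string (CCACACCC or CCACGCCC or CCCCACCC or CCCCGCCC) was in 19.1% of maxima and 6.34% of flanks (adjusted p = 5.01e-16, exact McNemar test with Benjamini-Hochberg adjustment, as for the other strings). The string of TEAD factors, the DNA-binding partners of YAP (AGAATG or GGAATG), was in 33.0% and 23.3% (exact McNemar test, adjusted p = 1.82e-05). AP-1 sites (TGACTCA or TGAGTCA), bound by FOS and JUN dimers, were in 8.38% and 3.76% (exact test, adjusted p = 4.87e-05). The CTCF string was in 28 maxima (3.01%) and 1 flank (exact test, adjusted p = 4.47e-07). The SOX string (CAAAG or CAATG after 2 letters that are each A or T) was in 31.9% and 25.6% (exact test, adjusted p = 0.00649), and this call was lost without chromosomes 8, 14 and 19 (4.19 points, adjusted p = 0.14). The 4-form reversed control, with its overlap, was in 32.0% and 26.6% (exact test, adjusted p = 0.019), which was lost against the higher-coordinate flank (adjusted p = 0.0925). The FOX string (TATTTAC or TATTTAT or TGTTTAC or TGTTTAT), read by forkhead factors such as FOXA2, was less frequent at the maxima (11.8%) than in the flanks (16.0%, exact test, adjusted p = 0.0192), a call also lost without those chromosomes (-3.74 points, adjusted p = 0.113) and within 50 bp (-2.69 points, adjusted p = 0.0558).

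The remaining strings did not pass the threshold against this flank: HNF1, HNF4 (CAAAGTCCA or CAAAGTTCA), OCT (ATGCAAAT or ATGCTAAT), the E-box (CANNTG), ETS (AGGAAGT or CGGAAGT), the nuclear receptor half-site (AGGTCA) and RUNX (TGTGGTC or TGTGGTT), with differences of -3.01 to 2.69 points. Against the flank on the higher-coordinate side, OCT passed as less frequent at the maxima (-2.26 points, exact McNemar test, adjusted p = 0.000237) and the nuclear receptor half-site as more frequent (5.48 points, exact test, adjusted p = 0.00182). Over all regions of the GATA4 list the KLF or SP string was in 31.7%, TEAD in 24.8%, AP-1 in 7.09%, CTCF in 2.39%, SOX in 22.3% and FOX in 8.42%. A match is a run of letters and not a measured site. Median GC content was 48.3% at the maxima and 44.8% in the flanks, and its part in the strings rich in G and C or in A and T was not tested.

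The 293 regions without a GATA motif differed in the other strings. Of these, 83 (28.3%) held the KLF or SP string and 17 (5.80%) the CTCF string, where 14.9% and 1.72% of the 638 with a motif did. TEAD matches were in 27.6% without and 35.4% with a GATA motif. Among the 64 windows of high GC content 35 (54.7%) held the KLF or SP string. Annotated tRNA genes overlapped 13 regions, of which 1 held a GATA motif, and pseudogenes overlapped 31, of which 12 did. For 18 regions (1.93%) the 201 bp window had another copy in the genome (at least 95% identity over 80% of the window), and 7 of these held a motif. The place of reads from copied sequence is uncertain. Without the 54 regions with a copy, a pseudogene or a tRNA gene, the difference between maximum and flank was 39.2 points in place of 37.6.

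Among genes of the endoderm program, the largest shares with a region within 100 kb were those of transcription factors, basement membrane genes and receptors, an order that changed within 50 kb. The 8 lists of genes were chosen with earlier results of these data known and are described by counts alone. A region lay within 100 kb of a TSS of 10 of 20 PrE and XEN transcription factor genes, 10 of 20 basement membrane and matrix genes and 11 of 29 receptor and signalling genes, and of 2052 of 21951 protein-coding genes in all (9.35%). Counts were lower for endocytic and secreted endoderm proteins (4 of 28), cytoskeletal and epithelial or mesenchymal genes (4 of 18), pluripotency genes (3 of 26), trophoblast genes (2 of 15) and AP-1 genes (1 of 12). Over all 165 listed genes found in the annotation it was 45 (27.3%). Within 50 kb a region lay near 4 of 20 transcription factor genes (20%, in place of 50%), 8 of 20 basement membrane and matrix genes (40%) and 7 of 29 receptor and signalling genes (24.1%), beside 5.20% of protein-coding genes. The median protein-coding gene had 96.5 kb outside gene bodies within reach, and the list medians ran from 90.5 to 135 kb, with 126 kb for transcription factors. The part of this room in the counts was not tested. The 68 regions concerned held a GATA motif in 56 cases (82.4%), with a median mean percentile of 89.1, close to the 89.1 of all 931.

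All 3 chains of laminin-111, the first laminin of the embryonic basement membrane, had several regions upstream. Lamc1, the gamma-1 chain, had 4, at 23.3, 26.2, 36.5 and 44.1 kb upstream, of mean percentiles 98.3, 99.6, 84.5 and 99.7. The one at 23.3 kb held no motif and the others held 2 each. At the one 26.2 kb upstream the maximum signal was 33, 33 and 29 in GATA4 replicates 1 to 3 and 19, 14 and 15 in GATA6 replicates 1 to 3. Lamb1, the beta-1 chain, also had 4, packed between 35.8 and 43.7 kb upstream, although Gm6993 was the gene nearest to them. The strongest, at 35.8 kb, had a maximum signal of 34, 41 and 32 for GATA4 and 16, 11 and 12 for GATA6, and 3 motifs. The one at 40.7 kb held no motif, and those at 39.8 and 43.7 kb held 1 each. In GATA6 replicate 1 the one at 43.7 kb ranked only at percentile 20.3. Lama1, the alpha-1 chain, had 3, at 3.26, 13.8 and 43.0 kb upstream (the last nearer to Lrrc30), each with 1 or 2 motifs. At the nearest of these, maximum signal was 23, 20 and 20 for GATA4 and 12, 9 and 9 for GATA6. For these and the regions below, the pileups of the factors cannot be compared as binding strength, since depth was not scaled.

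Other matrix genes had fewer regions. Sparc, a collagen-binding glycoprotein, had 2 at 5.41 and 7.31 kb upstream. Fn1, fibronectin, had 2 at 28.3 kb upstream and 79.6 kb downstream (the latter nearer to Atic) with 4 and 3 motifs. Serglycin (Srgn) had 1 at 1.20 kb upstream with 3 motifs, and Serpinh1, the collagen chaperone HSP47, had 1 at 7.13 kb upstream. P4hb, a subunit of prolyl 4-hydroxylase, had 1 at 53.4 kb downstream, nearer to Slc25a10.

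Among transcription factors, Gata4 itself had a region 11.9 kb upstream, with 2 motifs and a mean percentile of 96.9, and a region 70.9 kb upstream, nearer to Blk, with 1 motif and a mean percentile of 87.2. Klf5, a Krüppel-like factor of the early embryo, had 1 region 32.8 kb downstream with 3 motifs (mean percentile 99.8) and 1 region 37.6 kb upstream (96.9). Sox17, an endoderm regulator, had 1 region 40.7 kb upstream with 3 motifs (98.2) and 1 region 19.2 kb downstream with none (82.6). Hhex had 3 regions between 73.1 and 83.3 kb downstream, all nearer to Exoc6, of percentiles 71.3 to 86.1. Foxa2 and Foxq1, forkhead factors, had 2 each at 63.9 to 95.2 kb. From the nearer to the farther, mean percentiles were 91.3 and 59.6 for Foxa2 and 97.7 and 81.3 for Foxq1, whose nearer region held no motif. Otx2 had 1 at 13.6 kb downstream with 3 motifs and a mean percentile of 66.3 (14.6 to 94.6 over the libraries). Gata6 had no such region within 100 kb.

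The 11 of 29 receptor and signalling genes with a region had 1 each. Pdgfra, the PDGF receptor whose surface protein marks primitive endoderm, had 1 region 8.40 kb upstream with 4 motifs and a mean percentile of 99.9, the highest of any listed gene. Its maximum signal was 31, 39 and 38 in the GATA4 libraries and 14, 8 and 17 in the GATA6 libraries. All 4 FGF receptor genes had 1 region: Fgfr3 at 1.04 kb upstream without a motif, Fgfr2 at 18.7 kb downstream, Fgfr4 at 34.1 kb downstream (nearer to Nsd1) and Fgfr1 at 68.5 kb upstream. The Fgfr2 and Fgfr4 regions had 2 motifs and mean percentiles of 99.1 and 98.8, and Fgfr1 had 1 motif and 81.0. Spry2, Spry4 and Dusp4, which restrain FGF signalling, had 1 region each at 62.6, 68.8 and 81.3 kb upstream, with 2 to 4 motifs. The Spry4 region was nearer to Arhgap26. Fgf8 and Lifr had 1 at 2.47 and 1.02 kb upstream.

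In the remaining lists the mean percentiles ran from 53.7 near Jund to 99.2 near Snai1. Ttr, the thyroxine carrier transthyretin secreted by yolk sac endoderm, had 1 region 16.4 kb upstream with 4 motifs (mean percentile 95.4) and 1 region 84.5 kb downstream, nearer to B4galt6. Dab2, an endocytic adaptor, had 1 at 55.4 kb upstream with a maximum signal of 19, 17 and 18 for GATA4 and 6, 6 and 6 for GATA6. Cubn, the endocytic receptor cubilin, had 1 at 4.56 kb upstream, which also lay 77.6 kb upstream of Vim. Ctsl, a lysosomal protease, had 2, of mean percentiles 82.2 (7.90 in GATA6 replicate 1) and 89.3. Among pluripotency genes, Klf4 had 1 at 15.8 kb downstream (percentile 97.1). Tbx3 had 2 at 81.6 and 90.4 kb upstream with percentiles of 98.8 and 98.1. Lin28a had 1 at 98.6 kb, nearer to Rps6ka1, with a percentile of 69.6. Elf5 and Gata2 were the trophoblast genes with a region, of percentiles 68.3 and 69.9 for Elf5 and 81.5 for Gata2. Jund was the AP-1 gene, with 2 regions of percentiles 53.7 and 76.2, the first without a call in GATA6 replicates 2 and 3. The far Elf5 region was nearer to Ehf, and the Jund regions to Mpv17l2. Snai1, Krt19 and Actn1 were the other cytoskeletal and epithelial or mesenchymal genes, and the regions of Snai1 and Krt19 were nearer to other genes. Mean percentiles were 99.2 for Snai1, 93.1 and 73.8 for Krt19, and 81.0 and 81.4 for Actn1.

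**Figure D4:**
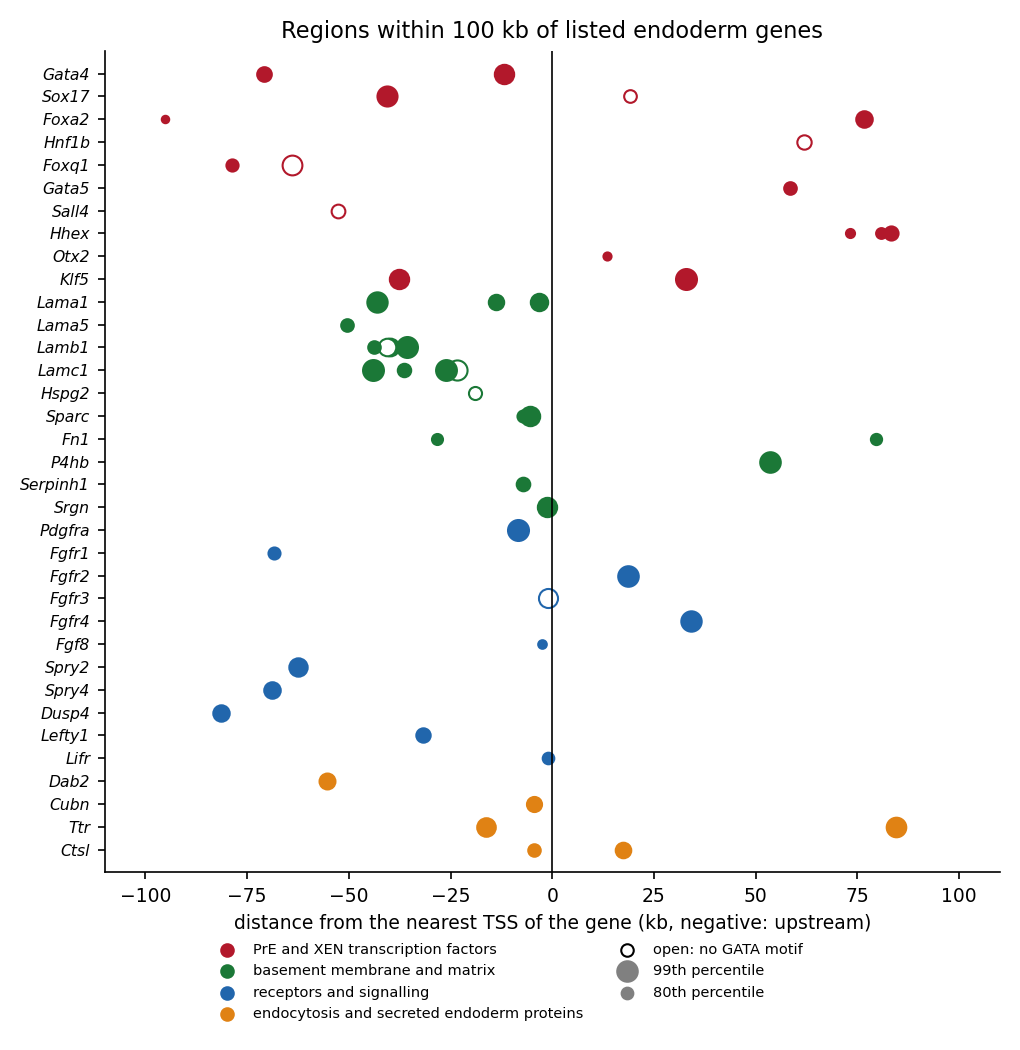
Regions within 100 kb of a TSS of the genes of 4 lists, by signed distance in kb from the nearest TSS of the gene (horizontal axis, negative upstream), 1 gene per line. Colour gives the list, dot size grows with the mean percentile of total signal, and open dots have no GATA motif within 100 bp of the maximum. Lamc1 and Lamb1 have 4 dots each, all upstream, and the FGF receptor genes 1 dot each.

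Genes with a region nearby had a promoter region in a higher share of cases than other genes. Of 2052 protein-coding genes with a region within 100 kb, 648 (31.6%) had a region of the GATA4 list within 1 kb of a TSS, compared with 3579 of 19886 genes without one, and 19.3% and 9.20% had a promoter region shared with GATA6. Among the 45 listed genes with a region nearby, 24 (53.3%) had a promoter region, beside 27.3% of all 165 listed genes and 19.3% of all protein-coding genes. Of the 2052 genes, 508 lay on chromosomes 8, 14 and 19, beside 2153 of the 19886 genes without a region nearby. The part of these chromosomes in the shares was not tested. The shares themselves were not tested either, and genes near each other share regions.

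The regions were dense on chromosomes 8, 14 and 19. These chromosomes held 263 regions (28.2%) on 12.8% of the autosomal length, at 0.833 regions per Mb beside 0.304 on the other autosomes, a ratio of 2.74. Chromosome 19 had 1.17 regions per Mb, and chromosome X 0.076. The other sets shared this: 31.0% of shared regions inside genes, 28.4% of shared promoters and 20.7% of GATA4-only regions between genes were on the same 3 chromosomes. More copies of a chromosome and more binding per copy cannot be told apart in these files. The motif share was 68.8% on the 3 chromosomes and 68.4% elsewhere. On chromosome 1, the stretch from 150 to 170 Mb held 28 of its 75 regions. Among them were those upstream of Lamc1 and the one nearest to Gm47996.

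**Figure D5:**
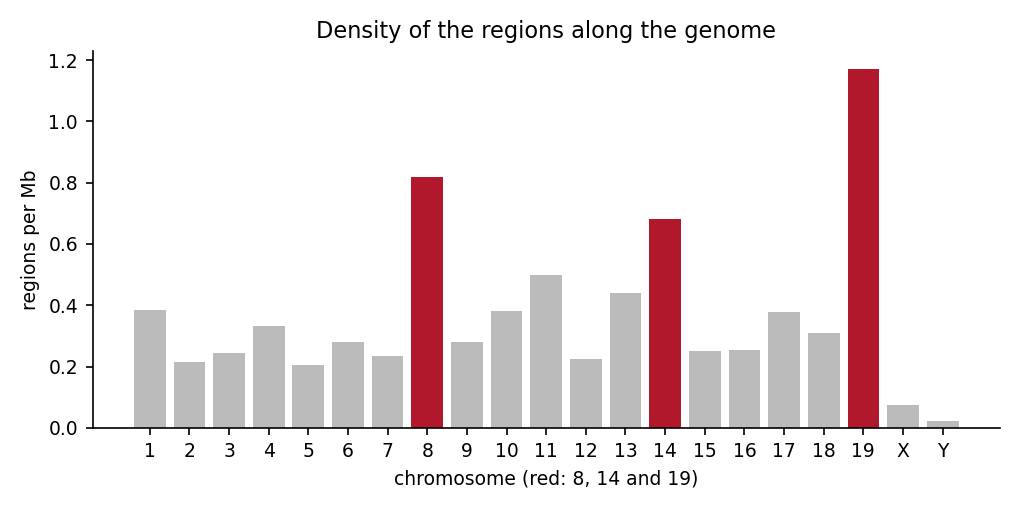
Number of regions per Mb of chromosome length (vertical axis) by chromosome, with chromosomes 8, 14 and 19 in red. Chromosome 19 is highest at 1.17, chromosomes 8 and 14 reach 0.819 and 0.681, and the remaining chromosomes lie at or below 0.50.

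Some regions lay in clusters. Of 19108 intervals between neighbouring protein-coding genes, 674 held a region, 519 of them a single one and 57 at least 3, and 208 regions had another within 10 kb. The most, 8, lay within 18.8 kb between Itln1 and Cd244a on chromosome 1, and 4 of them held a motif. Next came 3 intervals with 7 regions. Between Slc10a2 and Efnb2 on chromosome 8, the regions spread over 368 kb and all 7 held a motif. Between the prolactin family genes Prl2c3 and Prl2c2 on chromosome 13, and between the start of chromosome 11 and Sfi1, 1 of 7 regions held a motif, and 2 of 7 in each had another copy in the genome.

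The regions of highest signal rank were of 2 kinds. Some were narrow with an extreme pileup: the first in rank, 391 bp wide at chrX:143482912-143483302 and 35.5 kb from Pak3, had a maximum signal of 276, 273 and 232 in GATA4 replicates 1 to 3 and 218, 197 and 198 in GATA6 replicates 1 to 3, and no motif. The region at chr1:24613064-24613170, 25.6 kb from Col19a1, was 107 bp wide with maxima of 255, 268 and 216 for GATA4 and 142, 148 and 178 for GATA6, and its window had 1 other copy, in the mitochondrial genome. The region at chr13:9011385-9011860, 15.5 kb from Gtpbp4, had 102, 103 and 93 for GATA4 and 68, 86 and 70 for GATA6, and no motif. Others were over 1 kb wide, with maxima of at most 39: those nearest to Fndc3a (137 kb), Rp1l1 (25.8 kb), Gm47996 (13.4 kb) and Tsc22d1 (138 kb), with 1 or 2 motifs each, and the Pdgfra region with 4. Those near Itm2a and Vmn1r238 were 3525 and 3176 bp wide with maxima of 10 to 23.

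The regions with most motifs were not those of highest signal. Those near Gpc4, a glypican, and Trib1, a pseudokinase, had 6 motifs within 100 bp of the maximum, and those near Ndrg1, Cyp26a1 and Snx2 had 5, with mean percentiles of 91.3, 63.5, 99.0, 96.8 and 93.7 in this order. At the Gpc4 region, 11.9 kb from its TSS, the maximum signal was 15, 10 and 17 for GATA4 and 9, 5 and 7 for GATA6. At the Trib1 region, 80.9 kb away, the GATA4 libraries reached 10, 9 and 10 and the GATA6 libraries 12, 4 and 6. Within their own lists the GATA4 libraries ranked it at percentiles 97.1, 90.9 and 88.3, whereas the GATA6 libraries gave 93.5, 5.02 and 6.05, with replicates 2 and 3 near the bottom. The Cyp26a1 region, 4.30 kb from the gene of a retinoic acid degrading enzyme, had maxima of 7, 10 and 8 in the GATA4 libraries and 10, 10 and 9 in the GATA6 libraries.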

How the data were processed

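CUT&RUN for GATA4 and GATA6 was measured in XEN cells, 3 libraries per factor, grouped by sample title. The authors aligned reads to mm10 with Bowtie2 2.3.4.1, removed duplicates, reads of mapping quality under 20, mitochondrial reads and blacklisted regions, and called regions per library with SEACR 1.3 at a numeric threshold of 0.01, so that the number of regions per library mostly reflects that threshold. The deposited lists of each library give total and maximum signal (pileup unscaled for depth), so only ranks within a list were compared. Reads left per library are not given, and the depth behind a share is its number of regions. Regions not found in all replicates were discarded by the authors to give the combined lists, which hold positions only.

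The maximum of a region was the median, over its libraries, of the midpoints of their maximum blocks. TSSs came from GENCODE M21 and sequence from GRCm38.p6. Motif shares were compared by exact McNemar, Fisher's exact and exact permutation tests (scipy 1.17.1) with Benjamini-Hochberg adjustment, and scripts were tested on simulated data. Copies were sought with blastn 2.17.0. Members, gene lists and the naming rule (the 10 highest percentiles, the 5 with most motifs, up to 8 genes per list, the 3 fullest intervals with ties, regions at the 1 kb limit) were chosen with earlier results of these data known. Genes beyond 8 per list were named after their values were seen. Alternatives changed windows, flanks, limits, chromosomes and libraries. The listed Cripto was not found in the annotation and was left out. A region near a listed gene is counted but not reported or drawn here.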

Additional observations from a re-analysis of the deposited data

How the results depend on the processing

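Requiring a region in at least 2 of 3 libraries of each factor in place of all 3 gave 2229 regions in place of 931, and the other alternatives gave 668 to 1164. The excess of GATA motifs at the maximum over the flank kept its direction and passed the exact McNemar test under all alternatives run (19.4 to 41.6 points), the highest being without windows of GC 60% or more. That setting and the one without copies, pseudogenes and tRNA genes were chosen after seeing the data. The GC limit was set on the window at the maximum alone, and the motif is rich in A and T. Its 41.6 points are therefore not an independent check. The difference from shared regions inside genes stayed negative and passed the threshold without chromosomes 8, 14 and 19 (-7.25 points), at 2.5 kb from every TSS (-8.35 points), and with lists built without GATA4 replicate 2, GATA4 replicate 3 or GATA6 replicate 2 (-4.86, -4.34 and -5.63 points, with -5.63 to -3.47 over the 6 libraries left out). The difference from regions of the GATA4 list only was -1.37 points when centred on the midpoint and -1.53 points without chromosomes 8, 14 and 19, and 0.0494 to 7.57 points with 1 library left out, passing only without a GATA4 replicate (6.83, 7.57 and 6.06 points). Such lists admit regions found in 2 libraries, and the cause of the change was not tested. The number of strings more frequent at the maximum was 7 or 8, the GATA motif and its pairs among them. Which strings passed changed: the reversed control was lost and the nuclear receptor half-site gained against the higher-coordinate flank. SOX was lost without chromosomes 8, 14 and 19. Listed genes with a region made up 16.4% within 50 kb and 19.4% when only the nearest protein-coding TSS counted, beside 5.20% and 3.20% of all protein-coding genes. In these settings transcription factors went from 50% to 20% and 35%, cytoskeletal and epithelial or mesenchymal genes from 22.2% to 11.1% and 5.56%, and AP-1 genes from 8.33% to 0% in both. The median percentile was 90.7 with total signal divided by width, in place of 94.0.

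The 2.49 point difference between GATA4 and GATA6 maxima had p = 0.25 by exact permutation in a replicate block (sign changes of 3 pairs, the smallest p possible), and was 0.578 points within 50 bp of the maximum (p = 0.9). Same-numbered libraries were not paired by the data (correlations of deviations 0.0566, -0.0152 and 0.003 over 914 regions), and GATA4 replicate 1 alone correlated best with its own number. Depth limits all of these values, since reads per library are not given and typical pileups were shallow.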
